A study of Homo sapiens with 16 samples.

Results

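TC-71-only cohesin sites are the SMC1 intervals that the authors' list for the Ewing sarcoma line TC-71 holds and that share no base with any SMC1 interval listed for TC-32. On chromosomes 1 to 22 and X there were 1769 of them among 18264 TC-71 SMC1 intervals, which is 9.69% of the list. The other 16495 TC-71 intervals, called shared here, overlapped the TC-32 list of 32720 intervals by at least 1 bp. These counts depend on list length: with the TC-32 list cut to the length of the TC-71 list, 4581 intervals (25.1%) had no TC-32 counterpart. The sites were chosen by the measured peak positions of the 2 SMC1 lists, so rank, fold enrichment, width and distance between the lines are given as descriptions. Acetylation and BORIS come from other antibodies that the choice of sites did not use.

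Chromatin was immunoprecipitated from formaldehyde-crosslinked TC-71 and TC-32 cells with antibodies against SMC1, H3K27ac and BORIS, and input chromatin was sequenced alongside. Each line and antibody had 2 samples, 16 in all, and the labels point both samples of a line to 1 peak list. Per the labels, TC-71 represents disease after chemotherapy and TC-32 disease at diagnosis. Each is a single established line grown in the same medium, so stage of therapy and line of origin cannot be told apart. With 1 list per line and no value per replicate, no difference between the lines could be tested. Shares are followed by their exact 95% binomial interval (Clopper-Pearson), which reflects counting error and nothing else. The depth of sequencing is unknown here, as peak lists do not hold it.

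Cohesin is a ring complex that holds sister chromatids together and extrudes loops of chromatin, and SMC1 is a core subunit of the ring. In interphase cells most cohesin peaks lie where the insulator protein CTCF halts extrusion, and these tend to be common to many cell types. A smaller group lies at active enhancers and promoters, marked by H3K27ac, and varies more between cell types. BORIS (CTCFL) is a germ-line paralog of CTCF that recognises similar sequences. All positions are hg19, counted from 1. No gene annotation of that build was used here, so no site was assigned to a gene. Sites are named by cytogenetic band, and a gene mentioned with a band is background.

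TC-71-only sites sat low in their own list, and a minority ranked high. Within the TC-71 SMC1 list their median rank percentile by −log10 q was 22.8, against 53.4 for shared intervals, where 100 is the strongest peak. Their median fold enrichment over input, as the authors' peak caller gave it, was 4.98 (quartiles 4.18 and 6.001), against 6.35 (4.98 and 8.31) for shared intervals. They were also narrower, with a median width of 154 bp against 189 bp. Only 8 of the 1769 (0.452%) were listed with several summits, compared with 174 shared intervals (1.05%).

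The share of intervals listed only in TC-71 grew with every step down the ranking. In the highest decile of −log10 q it was 17 of 1827 (0.930%, 0.543 to 1.49%), and in the lowest 428 of 1826 (23.4%, 21.5 to 25.5%). The fifth and sixth deciles held 124 and 159 such sites, 6.79% and 8.70%. The highest decile still contained sites without a TC-32 counterpart, although the TC-32 list is 1.79 times as long.

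**Figure D1:**
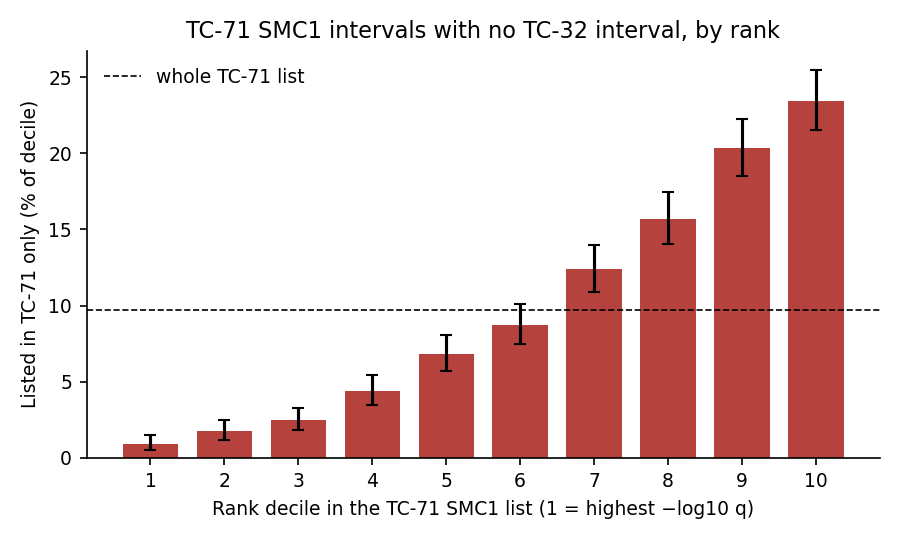
Bars give the percentage of TC-71 SMC1 intervals in each rank decile (horizontal axis, decile 1 with the highest −log10 q) that overlap no TC-32 SMC1 interval, with exact 95% intervals as error bars and the whole-list share of 9.69% as a dashed line. The share climbs from 0.930% in decile 1 to 23.4% in decile 10.

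The 20 strongest TC-71-only sites ranked between 329 and 2171 of the whole TC-71 list and lay on 12 chromosomes. Their fold enrichments ran from 5.96 to 14.7. Of these 20, 19 lay in an H3K27ac domain of neither line, 1 lay in a TC-32 domain alone and 0 held a BORIS site. Among the 100 strongest, 93 lay in a domain of neither line, while the share over all TC-71 SMC1 intervals was 82.2%. The strong TC-71-only sites were mostly cohesin peaks outside acetylated chromatin, as TC-71 cohesin peaks were in general. In the highest rank quartile 94.2% (85.8 to 98.4%) of TC-71-only sites and 83.0% (81.9 to 84.1%) of shared intervals lay in neither line's domains.

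Of the 20 strongest sites, 3 lay just beside a TC-71 domain, and 10 lay in or nearer to a TC-32 than a TC-71 domain. At 6q25.2 (chromosome 6, 153633817 to 153634063, fold 10.4, rank 329) the nearest TC-71 domain was 207 bp away and the nearest TC-32 domain 38.9 kb away. At 14q11.2 (chromosome 14, 22940555 to 22940849, fold 10.8) these distances were 99 bp and 85.3 kb. At 7q22.1 (chromosome 7, 98030548 to 98030755, fold 11.6) they were 289 bp and 117 kb. No other site among the 20 was within 1 kb of a TC-71 domain. Over all sites outside TC-71 domains the share within 1 kb of one was 5.92% for TC-71-only and 6.92% for shared intervals. On the other side, at 11q21 (chromosome 11, 94887719 to 94887932, fold 12.8) the nearest TC-71 domain was 64.4 kb away and the nearest TC-32 domain 3.07 kb away.

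Other strong sites were far from TC-71 acetylation. The highest fold enrichment of all TC-71-only sites, 14.7, was at 2q33.2 (chromosome 2, 204259317 to 204259539), 59.1 kb from the nearest TC-32 cohesin interval and 64.5 kb from the nearest TC-71 domain, with a TC-32 domain 7.75 kb away. At 11p12 (chromosome 11, 40743798 to 40744036, fold 13.0) the nearest TC-32 SMC1 interval was 297 kb away, and domains of TC-71 and TC-32 were 324 kb and 364 kb away. The site at 4p15.2 (chromosome 4, 27320491 to 27320680, fold 12.7) was 142 kb from TC-32 cohesin, with domains at 118 kb in TC-71 and 295 kb in TC-32. The single acetylated site of the 20, at 4q35.1 (chromosome 4, 185021454 to 185021771, fold 8.42), lay in a TC-32 domain, 14.11 kb from the nearest TC-71 domain and 2.79 kb from TC-32 cohesin.

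Most TC-71-only sites stood more than 10 kb from the nearest TC-32 cohesin interval. The median gap was 28031 bp (quartiles 9876 and 60591 bp). For the 16260 intervals listed only in TC-32, the median gap to the shorter TC-71 list was 46346 bp. List length bears on this contrast, since with the TC-32 list cut to the TC-71 length the median gap of the TC-71-only sites was 48167 bp. Of the TC-71-only sites 86 (4.86%) lay within 1 kb of TC-32 cohesin, 361 (20.4%) at 1 to 10 kb, 1101 (62.2%) at 10 to 100 kb and 221 (12.5%) farther than that. Sites within 1 kb were the weakest, at a median rank percentile of 10.3, while the 3 farther classes had medians of 23.6, 22.99 and 22.3.

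**Figure D2:**
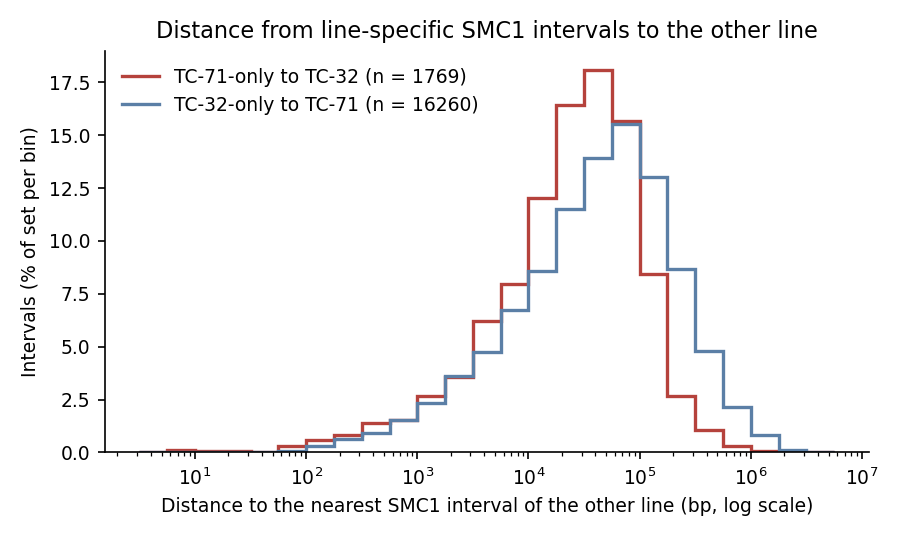
Lines give the percentage of TC-71-only SMC1 intervals (1769) and of TC-32-only SMC1 intervals (16260) per distance bin, against the distance in bp to the nearest SMC1 interval of the other line on a log axis. The TC-71-only sites peak between 10 and 100 kb, with a median of 28031 bp against 46346 bp for the TC-32-only intervals, whose distances are to a shorter list.

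Few sites depended on the last bases of the overlap rule. The smallest gaps among TC-71-only sites were 6 bp at 3q22.3 (chromosome 3, 136470472 to 136470612, fold 4.88), 9 bp at 3q26.1 and 13 bp at 8q22.3. Among shared intervals the smallest overlaps were 14 bp at Xp22.13, 16 bp at 8q24.21 and 19 bp at 5p14.2. Gaps of 100 bp or less were found for 9 sites, and 47 shared intervals had under 50% of their length covered.

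At the other extreme, 10 sites lay more than 500 kb from any TC-32 cohesin interval. The farthest was at 1p31.1 (chromosome 1, 81880188 to 81880379, fold 8.54), 1196 kb away, with acetylated domains 276 kb away in TC-71 and 284 kb away in TC-32. At 1p32.2 (chromosome 1, 57890268 to 57890522, fold 7.88) the gap was 592 kb. That site lay in a TC-71 domain of fold 7.202 (57886602 to 57890927), while the nearest TC-32 domain was 1121 kb away. A pair at 7q11.22 (chromosome 7, 68143237 to 68143372 and 68144979 to 68145211) shared 1 TC-71 domain of fold 5.74, with the nearest TC-32 domain 846 kb from the second of them. Of the remaining sites of this kind, 3 were on the X chromosome, 2 in Xq13.3 and 1 in Xq11.2. Others were near centromeres, at 8q11.1, 15q11.2 and 16p11.2.

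Where TC-71-only sites were acetylated in 1 line, that line was mostly TC-71. In TC-71, 300 of the 1769 sites lay in an H3K27ac domain (16.96%, 15.24 to 18.8%), against 13.6% of all TC-71 SMC1 intervals. In TC-32, 214 did (12.1%, 10.6 to 13.7%), against 14.09% of all. With a −log10 q of at least 5 in both SMC1 lists the TC-71 share was 13.0%, and with that threshold in the TC-71 list only it was 12.5%. The share over all intervals at that threshold is not given here, so these 2 values cannot be set against 13.6%. Both lines had a domain at 182 sites (10.3%, 8.91 to 11.8%), close to the 9.92% over all intervals. TC-71 alone had one at 118 (6.67%, 5.55 to 7.93%; all intervals 3.68%), and TC-32 alone at 32 (1.81%, 1.24 to 2.54%; all intervals 4.17%). The remaining 1437 sites (81.2%, 79.3 to 83.03%) lay in a domain of neither line.

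Among sites acetylated in 1 line only, that line was TC-71 for 118 of 150 TC-71-only sites (78.7%, 71.2 to 84.9%) and for 554 of 1283 shared intervals (43.2%, 40.4 to 45.9%). The share stayed high down the ranking, with 37 of 47 TC-71-only sites (78.7%, 64.3 to 89.3%) in the third rank quartile and 68 of 83 (81.9%, 71.95 to 89.5%) in the lowest. For shared intervals those quartiles gave 43.0% and 45.8%. The upper quartiles held few such sites, 3 of 4 in the highest and 10 of 16 in the second. The intervals of the lower 2 quartiles did not overlap between TC-71-only and shared.

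Acetylation at TC-71-only sites varied with rank in both lines. For TC-71 it was present at 3 of 69 TC-71-only sites in the highest rank quartile (4.35%, 0.906 to 12.18%), against 11.8% (10.9 to 12.8%) of shared intervals there. In the second quartile it was present at 21 of 229 (9.17%, 5.77 to 13.7%) against 12.3%, and in the third at 67 of 520 (12.9%, 10.1 to 16.1%) against 11.7%. Only in the lowest quartile, which holds 951 of the 1769 sites, did the TC-71 interval for TC-71-only sites lie above that for shared ones, at 209 of 951 (21.98%, 19.4 to 24.7%) and 17.95% (16.7 to 19.2%).

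For TC-32, acetylation was present at 1 of 69 TC-71-only sites in the highest quartile (1.45%, 0.0367 to 7.81%), against 13.5% (12.5 to 14.5%) of shared intervals. In the second quartile it was present at 17 of 229 (7.42%, 4.38 to 11.6%) against 13.05%, and in the third at 40 of 520 (7.69%, 5.55 to 10.3%) against 12.7% (11.6 to 13.7%). In the lowest quartile the shares were 156 of 951 (16.4%, 14.105 to 18.9%) and 18.6% (17.4 to 19.95%). In the upper 2 quartiles TC-71-only sites thus had the lower share for both lines, with overlapping intervals for TC-71.

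**Figure D3:**
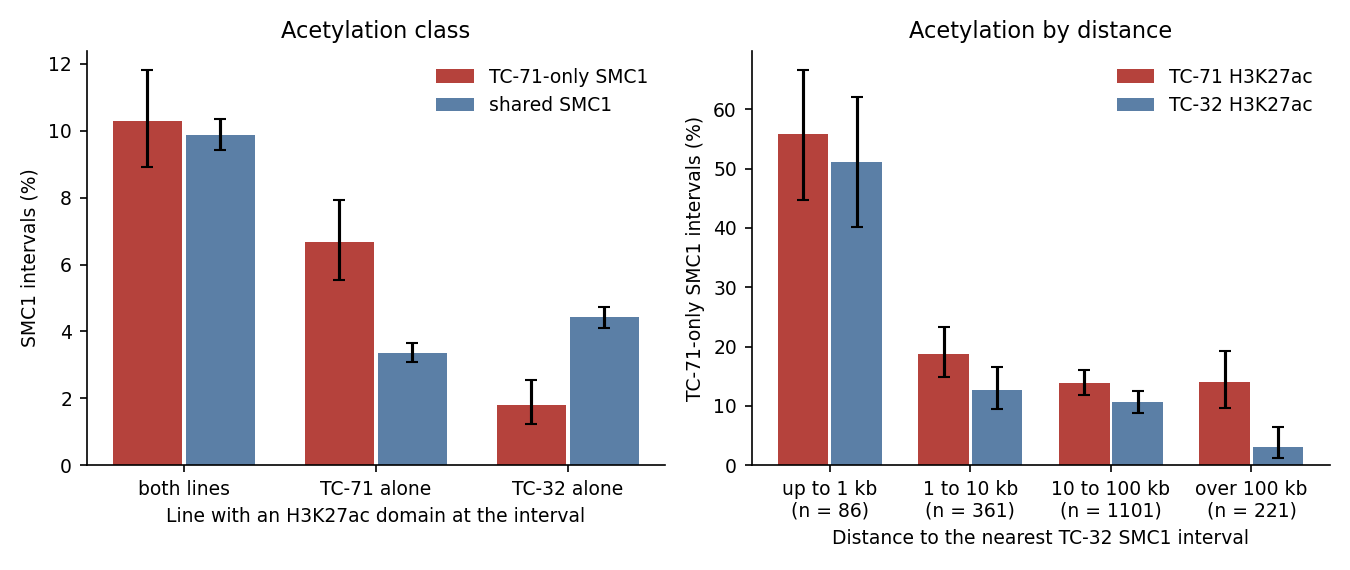
Left, bars give the percentage of TC-71-only (1769) and shared (16495) SMC1 intervals with an H3K27ac domain in both lines, in TC-71 alone or in TC-32 alone, and right, bars give the percentage of TC-71-only intervals with TC-71 or TC-32 acetylation by distance to the nearest TC-32 SMC1 interval, with exact 95% intervals as error bars. TC-71-alone acetylation was found at 6.67% of TC-71-only and 3.36% of shared intervals, and beyond 100 kb the shares for TC-71 and TC-32 acetylation were 14.03% and 3.17%.

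Acetylation also varied with distance to TC-32 cohesin. Within 1 kb, 48 of 86 sites lay in a TC-71 domain (55.8%, 44.7 to 66.5%) and 44 in a TC-32 domain (51.2%, 40.1 to 62.1%), 41 of them in both. Acetylation was thus more frequent in both lines at these close sites than farther away. Between 10 and 100 kb the shares were 13.9% (11.9 to 16.1%) in TC-71 and 10.6% (8.87 to 12.6%) in TC-32. Beyond 100 kb, 31 of 221 sites lay in a TC-71 domain (14.03%, 9.73 to 19.3%) and 7 in a TC-32 domain (3.17%, 1.28 to 6.42%). Of those distant sites 24 were acetylated in TC-71 alone and 0 in TC-32 alone, a count of 0 that allows a share of up to 1.36% as 3 counts of the total, and of up to 1.66% as the upper end of the exact interval.

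The domains around acetylated TC-71-only sites were broad and high in their list. In TC-71 the 300 sites lay in 289 domains with a median width of 2375 bp and a median rank percentile of 74.1, compared with 1146 bp and 50 for all TC-71 domains. Domains with a shared cohesin interval and no TC-71-only site had medians of 1938 bp and 66.8. Of the 289 domains, 27 (9.34%) also held a shared cohesin interval, against 7.84% of all TC-71 domains, and 62 (21.5%) held a TC-32 cohesin interval somewhere along their length, against 18.4%. In TC-32 the acetylated sites lay in 209 domains, of which 61 (29.2%) held a TC-32 cohesin interval elsewhere, against 19.1% of all TC-32 domains. These 209 domains had a median width of 2237 bp, against 1269 bp for all TC-32 domains. The shares of domains with cohesin were not matched for width in either line.

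Acetylation of TC-71 alone at a site did not always mean a domain missing from TC-32. The 118 sites of that class lay in 114 TC-71 domains, and 31 of these (27.2%) overlapped a TC-32 domain at another point. The strongest such site was at 12p13.1 (chromosome 12, 13251029 to 13251307, fold 10.1), in a TC-71 domain of fold 3.59 (13250803 to 13252668), 2.31 kb from the nearest TC-32 domain and 110 kb from TC-32 cohesin. At 1p21.3 (chromosome 1, 95267590 to 95267876, fold 6.91) the TC-71 domain had a fold of 3.79 and the nearest TC-32 domain was 123 kb away, with TC-32 cohesin 3.52 kb away. At 8p22 (chromosome 8, 18871127 to 18871304, fold 6.93) the TC-71 domain had a fold of 5.02 and the nearest TC-32 domain was 803 kb away. At 3q25.2 (chromosome 3, 152553094 to 152553360, fold 6.58) the nearest TC-32 cohesin was 126 kb away and the nearest TC-32 domain 106 kb away. Further sites of the top 10 lay nearer to a TC-32 domain. The distances were 2.625 kb at 15q21.1, 16.6 kb at 11p15.2, 41.4 kb at 8q23.3, 42.8 kb at 6p21.2 and 99.1 kb at 8p21.2. The TC-71 domain at 15q21.1 was among the lowest of its list, at a rank percentile of 0.182.

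The reverse class was smaller, and the sites named from it mostly lay close to TC-71 acetylation. After 4q35.1, the strongest sites acetylated in TC-32 alone were at 19q13.33 (chromosome 19, fold 6.49 from 49711662 to 49711847), 8q23.1 (fold 4.55, 107093343 to 107093505) and 9q34.11 (fold 6.43, 130497634 to 130497872). The TC-71 domains nearest to them were 1.41 kb, 187 bp and 10 bp away. At 15q24.3 (chromosome 15, 78287325 to 78287520, fold 6.54) the distance was 568 bp.

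TC-71-only sites outside acetylation in both lines lay mostly nearer to a TC-32 domain, though less often than shared intervals did. Of the TC-71-only sites in neither line's domains with unequal distances, 629 of 1434 (43.9%, 41.3 to 46.5%) were nearer to a TC-71 than to a TC-32 domain. For shared intervals the figure was 4979 of 13559 (36.7%, 35.9 to 37.5%). Both are under 50%, and the TC-71 H3K27ac list is the shorter, with 26334 domains against 36355.

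BORIS was listed at few TC-71-only sites. A TC-71 BORIS interval lay at 28 of 1769 (1.58%, 1.05 to 2.28%), against 1.87% of all TC-71 SMC1 intervals, and 0 lay at a TC-32 BORIS interval, of which only 6 are listed, compared with 534 in TC-71. None of the 28 ranked in the upper 2 quartiles of the TC-71 SMC1 list, and their median SMC1 rank percentile was 19.8, compared with 61.8 for the 314 shared sites with BORIS. Those quartiles hold 69 and 229 of all 1769 TC-71-only sites, and the medians over all TC-71-only and all shared intervals were 22.8 and 53.4. Their BORIS peaks were not correspondingly weak, with a median BORIS fold of 6.34 (range 4.26 to 9.60) against 5.84, and a median rank percentile of 60.6 against 45.9 in the BORIS list. BORIS and SMC1 summits were a median of 17.5 bp apart, and 23 of the 28 pairs lay within 50 bp.

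Chromosome 14 held 8 of the 28 sites with BORIS, compared with 11 of the 314 shared sites with BORIS. Of these 8 and 11, 6 and 2 lay in the single band 14q32.33. The chromosome held 6.05% of all TC-71-only sites and 3.70% of the TC-71 list. In TC-71, 14 of the 28 were acetylated (50%, 30.6 to 69.4%), and 51.6% (45.9 to 57.2%) of the shared ones. In TC-32 the shares were 28.6% (13.2 to 48.7%) and 53.5% (47.8 to 59.1%), and these intervals overlap slightly. The classes were 7 acetylated in both lines, 7 in TC-71 alone, 1 in TC-32 alone and 13 in neither.

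Individual BORIS sites show the range of settings. At 14q32.2 (chromosome 14, 100752082 to 100752207), the band of the imprinted DLK1 and MEG3 genes, the BORIS fold was 9.60 and the SMC1 fold 3.39, with domains of fold 5.58 in TC-71 and 8.04 in TC-32. At 12q13.13 (chromosome 12, 53605674 to 53605808) the BORIS fold was 9.39 and no domain lay within 5 kb in either line. At 1p12 (chromosome 1, 119683747 to 119683882) the BORIS fold was 9.19 and the site was acetylated in both lines, 132 kb from TC-32 cohesin. Among those acetylated in TC-71 alone were 22q11.22 (chromosome 22, 22901628 to 22901807), with a domain of fold 7.79, and 9p13.3 (chromosome 9, 33523399 to 33523558), with a domain of fold 6.49. TC-32 domains ended only 178 bp from the site at 12q24.31 and 325 bp from that at 19q13.11.

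TC-71-only sites were found on every chromosome examined, and chromosome 14 stood highest. There 107 of 675 TC-71 intervals (15.9%, 13.2 to 18.8%) had no TC-32 counterpart, against 9.45% (9.02 to 9.89%) on the other chromosomes. Next came chromosome 22 with 41 of 344 (11.9%), 19 with 86 of 735 (11.7%), 16 with 64 of 570 (11.23%) and 13 with 49 of 449 (10.9%). The lowest were chromosome 1 with 138 of 1879 (7.34%, 6.21 to 8.62%), 12 with 68 of 922 (7.38%, 5.77 to 9.26%), 21 with 15 of 192 (7.81%), 9 with 59 of 712 (8.29%) and 18 with 31 of 364 (8.52%). By length, chromosome 19 was the densest with 1.45 sites per Mb, and X the sparsest with 0.232.

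Chromosome 14 also stood highest when rank was taken into account. Giving each of its intervals the whole-list share of its rank decile would make 62.4 sites, and 107 were listed, a ratio of 1.72. The same ratio was 1.35 for chromosome 22, 1.29 for 19 and 1.24 for 8, and it was lowest for chromosomes 12 and X, at 0.759 and 0.760. This calculation used TC-71 rank alone and not the number of TC-32 intervals. For each TC-71 interval there were 1.52 TC-32 intervals on chromosome 14, 1.37 on 22 and 1.31 on 19. The whole lists gave 1.79 and X gave 2.61. Chromosome 20, with 1.49, had a rank-based ratio of 1.01. On chromosome 14 the share was high in the lower quartiles, with 36 of 148 (24.32%, 17.7 to 32.1%) in the third quartile and 54 of 165 (32.7%, 25.6 to 40.5%) in the lowest. The other chromosomes gave 10.96% and 20.4% there. In the upper quartiles chromosome 14 had 4 of 186 (2.15%, 0.589 to 5.41%) and 13 of 176 (7.39%, 3.99 to 12.3%). Leaving out the bands 14q11.2 and 14q32.33, chosen after their values were seen, kept 72 of 532 (13.5%, 10.7 to 16.7%).

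**Figure D4:**
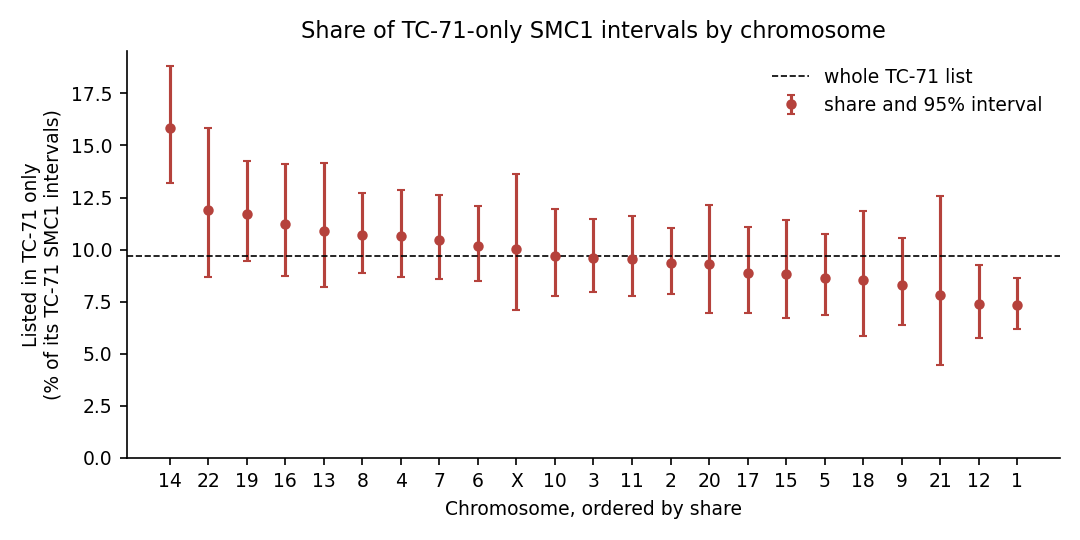
Points give the percentage of each chromosome's TC-71 SMC1 intervals that overlap no TC-32 interval, with exact 95% intervals, in descending order, and the dashed line marks the whole-list share of 9.69%. Chromosome 14 stands at 15.9%, with an interval of 13.2 to 18.8% above the line, and chromosomes 12 and 1 lie lowest with intervals below it.

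Sites were spread thinly over bands. A site was present in 598 of the 801 bands with TC-71 cohesin, 14 bands had 10 or more, and the 10 bands with most held 145 (8.20%). The leading bands were 19p13.3 with 23 of 146 TC-71 intervals, 14q32.33 with 22 of 75, 7q36.1 with 14 of 62, 19p13.2 with 14 of 106 and 14q11.2 with 13 of 68. In the 2 leading bands the shares were 15.8% (10.3 to 22.7%) and 29.3% (19.4 to 41.0%). Several of these, such as 19p13.3 and 16p13.3 (13 of 80), are gene-rich terminal bands. Within 3 Mb of chromosome ends, 141 of 1094 TC-71 intervals were TC-71-only (12.9%, 10.96 to 15.0%).

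**Figure D5:**
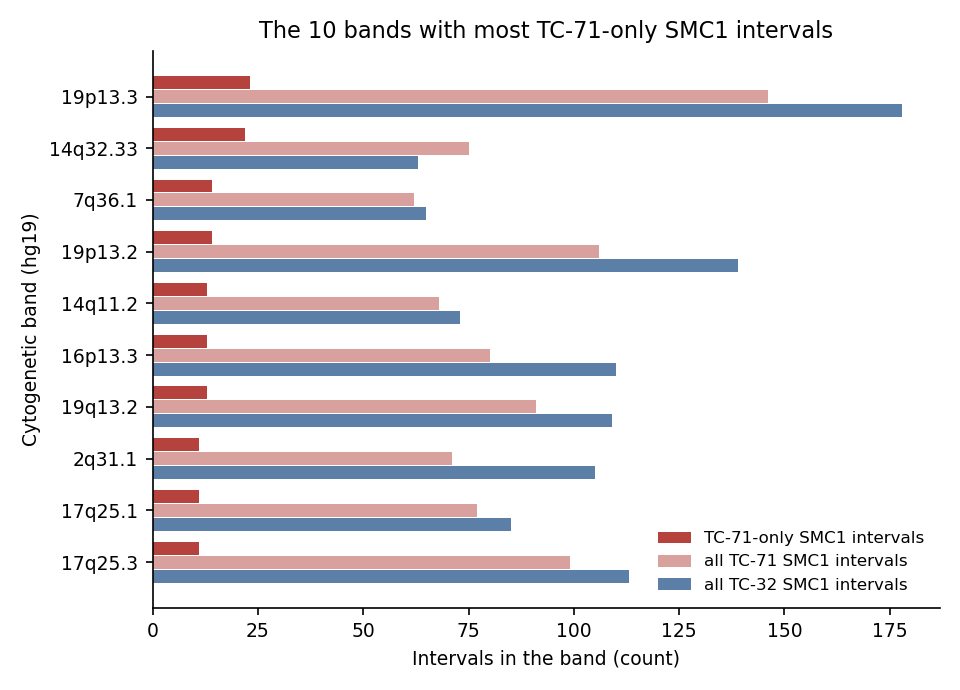
Bars give, for the 10 bands with most TC-71-only SMC1 intervals, the counts of TC-71-only, all TC-71 and all TC-32 SMC1 intervals. At 14q32.33 the 22 TC-71-only sites were among 75 TC-71 intervals, against 63 TC-32 intervals, and in the other 9 bands the TC-32 count was the higher.

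Pooled by locus, bands of antigen receptor genes held the highest share among the loci examined, though most other loci had wide intervals including it. These genes are rearranged in lymphocytes, where cohesin and CTCF sites bring distant segments together, and Ewing sarcoma cells are not lymphoid. Over 6 such bands 53 of 284 TC-71 intervals were TC-71-only (18.7%, 14.3 to 23.7%), compared with 9.69% of the list. The share was 7 of 22 at 22q11.22 (immunoglobulin lambda), 22 of 75 at 14q32.33 (immunoglobulin heavy chain), 13 of 68 at 14q11.2 (T-cell receptor alpha and delta), 6 of 37 at 7q34, 4 of 37 at 7p14.1 and 1 of 45 at 2p11.2 (immunoglobulin kappa). The interval lay above 9.69% at 22q11.22 (13.9 to 54.9%), 14q32.33 (19.4 to 41.0%) and 14q11.2 (10.6 to 30.5%). It included 9.69% at 7q34 (6.19 to 32.01%), 7p14.1 (3.03 to 25.4%) and 2p11.2 (0.0562 to 11.8%). On chromosome 14 without 14q11.2 and 14q32.33 the share was 13.5%, inside the 14q11.2 interval and below the 14q32.33 interval. A band holds many genes besides the locus named.

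At 14q32.33 the 22 sites ran from 104597404 to 107281449, and 0 lay in a TC-71 or TC-32 acetylated domain. Over all TC-71-only sites 81.2% lay in a domain of neither line and 1.58% had BORIS. In this band BORIS was listed at 6 of the 22, all from position 106626916 onward, near the end of the chromosome arm. It was also listed at 2 shared intervals of the band. The strongest cohesin peaks among the 22 were at 107280858 to 107281034 (fold 7.76, rank 3292) and 105287124 to 105287324 (fold 7.64, rank 3939), both without BORIS. The 6 TC-71-only sites with BORIS had SMC1 folds between 2.89 and 4.86. Their BORIS folds were 8.73 at 106765236, 8.55 at 106626916, 7.52 at 107238955, 6.27 at 107120180, 6.26 at 106873661 and 4.37 at 107239639. Of these 6 BORIS folds, 5 were above the median of 5.84 at shared sites. Only those at 106765236, 106626916 and 107238955 were above the median of 6.34 over all 28 TC-71-only sites with BORIS. The cohesin peaks beneath the 6 were weak, but the 28 also had a low median SMC1 rank percentile, 19.8.

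Pooled in the same way, other textbook loci lay nearer to the list share. HOX cluster bands held 27 of 231 (11.7%, 7.85 to 16.5%), replication-dependent histone gene bands 10 of 59 (16.9%, 8.44 to 28.97%) and the clustered protocadherin band 5q31.3 7 of 48 (14.6%, 6.07 to 27.8%). The band of DLK1 and MEG3 held 8 of 47 (17.02%, 7.65 to 30.8%), that of the imprinted pair IGF2 and H19 4 of 39, that of EWSR1 3 of 34 and that of FLI1 2 of 22. The EWSR1 and FLI1 genes form the fusion typical of Ewing sarcoma. Each of these intervals, taken over a whole locus, included 9.69%. The 2 histone bands differed when taken singly, as the antigen receptor bands were. At 6p22.1 the share was 9 of 39 (23.08%, 11.13 to 39.33%), with an interval above 9.69%. At 6p22.2 it was 1 of 20 (5%, 0.127 to 24.87%). The 6p22.1 share was above that of 14q11.2 (19.12%) and below those of 14q32.33 and 22q11.22, so single antigen receptor bands did not all exceed the other loci.

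Most TC-71-only sites stood singly, but some formed runs with no TC-32 cohesin between them. Of the 1769, 1447 (81.8%) were parted from other TC-71-only sites by another SMC1 interval of either line. The others made 144 runs of 2 or more with 322 sites (18.2%), of which 23 runs had 3 or more. In these stretches TC-71 domains outnumbered TC-32 domains. The spans of the 144 runs, 16.9 Mb in all, met 174 TC-71 and 98 TC-32 domains, a ratio of 1.78. Over the whole lists this ratio was 0.724, and in 3542 runs of 2 or more TC-32-only intervals it was 0.556, from 6195 TC-71 and 11139 TC-32 domains. Runs of TC-71-only sites hold no TC-32 cohesin by rule, and 19.1% of all TC-32 domains held TC-32 cohesin. The ratio of 1.78 is therefore not independent of the choice of runs. Domains were pooled over runs that differed, with 9 TC-71 and 0 TC-32 domains at 1p32.2 (57434032 to 57890522) and 1 and 5 at 9q21.2.

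The 2 longest runs had 6 sites each. One bridged the centromere of chromosome 8, with a site at 8p11.1 and 5 at 8q11.1 between 46941128 and 47399965, at folds of 5.81 to 9.53, in a span with 2 TC-71 and 0 TC-32 domains. Its span was 3846 kb, out of 16.9 Mb for all runs, and most of that lay between the 8p11.1 site and the first 8q11.1 site. Whether peaks could be listed in that stretch was not examined. A further site lay beyond this run, so that 6 of the 10 TC-71 intervals in 8q11.1 were TC-71-only, while TC-32 had 4 intervals in the band. Over all centromeric bands 15 of 80 TC-71 intervals were TC-71-only (18.8%, 10.9 to 29.0%). That share includes 8q11.1, with 6 of 10, and 8p11.1, with 2 of 3, so it does not show an excess at other centromeres. The other run lay at 20q12 (chromosome 20, 38058510 to 38880254), an 822 kb stretch with flanking TC-32 cohesin 161 kb and 14.6 kb beyond its ends. It met 4 TC-71 domains, of folds 3.12 to 4.31, and 0 TC-32 domains, and from its 6 sites the nearest TC-32 domain was 379 to 867 kb away. Its strongest cohesin peaks were at 38514800 to 38514952 (fold 6.54) and 38502764 to 38503027 (fold 5.78).

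Runs of 4 sites differed in their acetylation. At 22q11.22 (chromosome 22, 22785956 to 22901807) the span met 3 TC-71 domains and 1 TC-32 domain, and its last site carried BORIS and TC-71 acetylation. At 16p13.3 (chromosome 16, 2969684 to 3078479) there were 5 TC-71 and 4 TC-32 domains. At 19p13.2 (chromosome 19, 11908343 to 11992272) there were 2 and 3. At 11q24.2 (chromosome 11, 125225244 to 125322809) there were 0 in both lines, with the nearest domains over 100 kb away. The 14q32.33 run (107238955 to 107281449) met 2 TC-71 domains and 1 TC-32 domain, none of them at a site, and held 2 sites with BORIS. Among runs of 3, those at 1p21.3 (chromosome 1, 95774636 to 96382467) and 16p12.1 (chromosome 16, 26657070 to 26806786) met 3 TC-71 and 0 TC-32 domains each. Other runs of 3 did not share this pattern. The run at 8q24.3 (chromosome 8, 144212485 to 144364012) met 3 domains of each line. That at 12p13.1 met 5 of each, and that at 5q31.1 met 0 in both.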

How the data were processed

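Peak lists for SMC1, H3K27ac and BORIS in TC-71 and TC-32 were used as the authors deposited them, 1 list for the 2 samples of a line and antibody. MACS2 2.1.1, STAR 2.5.1b, SAMtools 1.3.1, Picard and deepTools 2.2.4 and the build hg19 are named in the submitters' processing notes. Their settings, and how replicates were handled, are not stated there. Every deposited peak has a score (10 times its −log10 q, without decimals), a fold enrichment (a ratio to the background that input gives), and the −log10 of its p and of its q. These are the authors' values and were used only within a list. Each list was called on its own, and list length moves with depth and enrichment. The smallest −log10 q was 2.00 in both SMC1 lists.

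Summits of 1 interval were combined, keeping the highest −log10 q, which made 18266 distinct TC-71 SMC1 intervals from 18455 listed and 32720 TC-32 intervals from 34320. Chromosomes other than 1 to 22 and X were left out (2 TC-71 SMC1 intervals). Overlap meant 1 bp in common, and distance the bases between interval ends. A run is a stretch of TC-71-only sites with no other SMC1 interval of either line between them. R 4.3.3 supplied bands (circlize 0.4.16) and lengths of chromosomes (GenomeInfoDb 1.38.1). The rest was done in Python 3.11.15 (pandas 2.3.3, numpy 2.4.6, matplotlib 3.10.9, scipy 1.17.1). On 8000 simulated sites the overlap and distance code made 0 wrong calls. Named sites follow a rule: the 20 with the highest −log10 q, those with BORIS, the top 10 acetylated in TC-71 alone, the top 5 in TC-32 alone and those over 500 kb from TC-32 cohesin, runs and bands with most sites. All 22 sites of 14q32.33 and the 6 of 8q11.1 were added after their values were seen. The sites, bands and rules were chosen with earlier results of these data known. No test was computed, since the lists hold no values per replicate.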

Additional observations from a re-analysis of the deposited data

How the results depend on the processing

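No paired analysis was possible because both samples of a line share 1 list, which also means that no replicate could be left out. Over the alternatives 67 values were recomputed. Of these, 45 fell inside the 95% interval of the reported value (of the median, for rank and distance) or within 1.5 times a reported count, and 22 did not. Leaving out 14q11.2 and 14q32.33 was chosen after seeing the data. Cutting the TC-32 SMC1 list to the TC-71 length moved most, since it removes the weaker TC-32 peaks: 4581 sites (25.1% of the list), a median rank percentile of 26.2, a median gap of 48167 bp, 14.6% in a TC-32 domain, 32.7% of chromosome 14 intervals, 54.7% of 14q32.33 intervals and 2052 sites in runs of 2 or more. With a −log10 q of at least 5 in both SMC1 lists, 13.0% of sites lay in a TC-71 and 9.35% in a TC-32 domain, and the median gap was 30840 bp. With that threshold in the TC-71 list only, 8.50% of its intervals were TC-71-only, with 12.5% in a TC-71 and 8.58% in a TC-32 domain. Requiring no TC-32 interval within 1 kb gave 9.21%, with 14.97% in TC-71 and 10.1% in TC-32 domains and a median gap of 30168 bp. Domains within 500 bp counted gave 20.4% for TC-71 and 14.6% for TC-32, and domains with a −log10 q of at least 5 gave 14.5% and 10.2%. Acetylated shares over all TC-71 SMC1 intervals are not given under these alternatives, so those of TC-71-only sites have no comparator there. The share in TC-71 domains was above that in TC-32 domains under all 8 alternatives run on it, and the BORIS share did not leave its interval under any. Depth is unknown, so absence from the TC-32 list is not absence of cohesin.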
